A study of Homo sapiens with 20 samples.

Results

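The 8 genes described here encode transcription factors of the hepatic nuclear factor and FOXA network: *HNF4A*, *HNF4G*, *FOXA1*, *FOXA2*, *FOXA3*, *ONECUT2*, *PROX1* and *NR5A2*. They were taken by symbol, through their Ensembl gene identifiers, from tables of 60624 gene identifiers in human islet-like organoids (hILOs) and 60623 in pancreatic progenitors (PPs), and all 8 were present in both tables and passed the filter of a mean of at least 1 in every comparison. All libraries came from the MEL1 INS GFP/W human embryonic stem cell line, a reporter line with green fluorescent protein at the insulin locus, differentiated in culture either without a further edit (WT) or after knockout of *ALKBH5* (A5-KO), the gene of an RNA demethylase that removes the m6A mark from mRNA. Per the study's methods, the knockout carries CRISPR-Cpf1 indels in a picked colony, so a difference between WT and A5-KO cannot be told apart from a difference between lines. There were 2 hILO libraries for each genotype, given in TPM, a share of all transcripts that is scaled by their length. There were 16 PP libraries, given in CPM, a share of all reads, which were 2 for each genotype at 0, 1, 2 and 3 h of 1 μg/ml actinomycin D (Act D), a compound that blocks transcription.

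FOXA proteins are pioneer factors: they bind their sites in closed chromatin and open it for other factors, and in the endoderm they precede the liver and pancreas programs. HNF4A and HNF4G are nuclear receptors that bind direct repeats of a short half-site and drive genes of lipid and plasma protein metabolism in liver, gut and pancreas. ONECUT2 is a cut-homeodomain factor related to HNF6 (*ONECUT1*), PROX1 is a homeodomain factor of hepatoblasts, pancreatic progenitors and lymphatic endothelium, and NR5A2 (LRH-1) is an orphan nuclear receptor of acinar, liver and gut epithelium.

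The label of the knockout was checked first. *ALKBH5* stood at 78.8 and 81.9 TPM in WT hILOs against 4.16 and 3.42 TPM in A5-KO hILOs, and at 149 and 172 CPM in WT PPs at 0 h against 19.1 and 18.8 CPM in A5-KO PPs. It fell to 48.3 and 33.7 CPM in WT PPs at 3 h, still above every A5-KO library. The PP libraries held 30516384 to 35206514 reads. The 2 WT libraries at 2 h lay farthest apart, with a median absolute log2 difference between replicates of 0.20 over genes of at least 10 CPM, against 0.07 to 0.15 in the other PP groups. Markers of the stages were present in hILOs, where 8 islet endocrine markers summed to 34582 and 36933 TPM in the WT libraries and to 26642 and 27855 TPM in the A5-KO libraries. There 12 hepatocyte markers summed to 19691 and 20039 TPM in the WT libraries and to 32059 and 32338 TPM in A5-KO. *TTR* made up most of that rise (7527 and 7550 TPM in WT against 18674 and 18749 TPM in A5-KO). Of the 11 hepatocyte markers tested 4 were higher and 3 lower in A5-KO, against 2.7% and 4.09% of all genes. Their median log2 difference was 0.17, against -0.06 over all genes. In PPs at 0 h, 5 progenitor markers summed to 798 and 1020 CPM in WT against 737 and 813 CPM in A5-KO, with *INS* and *GCG* at 0. There the hepatocyte markers summed to 1021 to 1070 CPM in the WT libraries and to 1786 to 1825 CPM in the A5-KO libraries, with *APOH* at 0 in both genotypes. The 8 mesenchyme markers summed to 120 to 128 CPM in the WT libraries and to 211 to 215 CPM in the A5-KO libraries. Of the 8 hepatocyte markers tested there 5 were higher in A5-KO, and of the 7 mesenchyme markers tested 4, against 1.57% of all genes. Their median log2 differences were 1.21 and 0.86, against 0.03 over all genes. The 7 intestine markers summed to 594 to 623 CPM in WT and to 796 to 822 CPM in A5-KO, and none of the 6 tested passed. In bulk libraries fewer cells of a type and less RNA per cell cannot be told apart, and the part of these markers in the results that follow was not tested. The labels do not say whether replicates came from separate differentiations, so the p-values measure only the spread between these libraries.

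Shown are the promoters, of 3 genes, that held a match to binding motifs of the network, with matches in capitals. They were read from RefSeq (GRCh38.p14), which gave 7 promoters for 5 of the 8 genes, each of 300 bases that run from 250 bases upstream of the start. *HNF4A* has an upstream promoter (chr20:44355449-44355748, plus strand) and a downstream one (chr20:44400989-44401288, plus strand), *FOXA1* lies on the minus strand (chr14:37595200-37595499), and *NR5A2* is shown at the second of its promoters (chr1:200042341-200042640, plus strand).
HNF4A upstream: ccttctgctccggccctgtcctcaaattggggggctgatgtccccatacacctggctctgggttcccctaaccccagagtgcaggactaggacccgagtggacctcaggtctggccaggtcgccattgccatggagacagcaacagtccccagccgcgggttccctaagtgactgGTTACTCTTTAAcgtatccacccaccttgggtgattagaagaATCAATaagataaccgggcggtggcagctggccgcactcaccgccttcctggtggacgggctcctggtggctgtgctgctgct
HNF4A downstream: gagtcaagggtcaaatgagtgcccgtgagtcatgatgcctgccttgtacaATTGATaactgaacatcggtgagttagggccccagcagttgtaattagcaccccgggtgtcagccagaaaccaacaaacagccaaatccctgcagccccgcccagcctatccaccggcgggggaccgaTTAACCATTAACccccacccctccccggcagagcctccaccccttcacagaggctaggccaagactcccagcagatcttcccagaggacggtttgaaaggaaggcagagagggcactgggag
FOXA1: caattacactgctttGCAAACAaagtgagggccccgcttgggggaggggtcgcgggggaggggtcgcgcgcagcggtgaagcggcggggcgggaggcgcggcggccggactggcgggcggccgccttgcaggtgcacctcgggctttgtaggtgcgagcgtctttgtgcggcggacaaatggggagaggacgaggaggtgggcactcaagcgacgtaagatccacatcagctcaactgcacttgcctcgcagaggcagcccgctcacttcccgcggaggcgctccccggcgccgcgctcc
NR5A2: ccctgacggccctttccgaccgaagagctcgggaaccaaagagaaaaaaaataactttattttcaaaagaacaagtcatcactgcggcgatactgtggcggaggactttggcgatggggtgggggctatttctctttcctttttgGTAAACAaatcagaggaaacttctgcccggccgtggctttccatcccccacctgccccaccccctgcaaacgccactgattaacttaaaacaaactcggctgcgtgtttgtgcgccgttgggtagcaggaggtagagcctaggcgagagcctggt
Both *HNF4A* windows held a match to the palindromic HNF1 site, at bases 176 to 187 and 179 to 190, and both held the ONECUT core ATTGAT, at bases 218 to 223 and 51 to 56. On both strands, 0.305% of all 35116 promoters of the same length held the HNF1 site and 6.26% the ONECUT core. The *FOXA1* window held the FOX core TGTTTNC at bases 16 to 22 and the *NR5A2* window held it at bases 146 to 152, as did 18.0% of all promoters. The HNF4 motif CAAAGNNCA and the NR5A2 motif CAAGGNCA, each in 5.28% of promoters, had no match in the windows of these 5 genes. The windows of *FOXA3* and *ONECUT2* and the first window of *NR5A2*, which are not shown, had no match to any of the motifs. A match gives the letters in the window and not binding.

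*FOXA2* was the most abundant of the 8 transcripts per length in PPs at 0 h. Scaled by the length of all annotated exons, it stood at 27.8 and 36.1 CPM per kb in WT and 29.2 and 30.9 CPM per kb in A5-KO. In WT it was followed by *FOXA3* (11.7 and 15.96 CPM per kb) and by *NR5A2*, *HNF4A* and *ONECUT2*, whose means of 9.77, 9.46 and 8.97 CPM per kb had overlapping libraries from each to the next. *PROX1*, *HNF4G* and *FOXA1* came last with means of 4.61, 4.32 and 3.95 CPM per kb, and these neighbors overlapped too. In A5-KO the order below *FOXA2* was *HNF4A* (13.0 CPM per kb on average), *FOXA3*, *ONECUT2*, *FOXA1* and *NR5A2* (10.98, 10.8, 10.1 and 8.62 CPM per kb, with overlapping neighbors), *HNF4G* (5.74 CPM per kb) and *PROX1* (4.09 CPM per kb). The order depends on the length used. *HNF4A* has 10167 bases of annotated exons but a canonical transcript of 4645 bases, so its level per kb is low by this choice. The order by canonical transcripts was not computed.

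In hILOs, *FOXA2*, *HNF4A* and *FOXA1* shared the top of the order in WT, with means of 69.0, 66.6 and 65.2 TPM and overlapping neighbors. *FOXA3* followed at 32.2 TPM. *NR5A2*, *HNF4G* and *ONECUT2* had means of 17.4, 15.5 and 14.7 TPM and also overlapped from each to the next, and *PROX1* was lowest at 11.5 TPM. *FOXA1*, last in WT PPs per kb of annotated exons, was thus among the top 3 in hILOs. The 2 tables were made with different units, and no test was run between the stages.

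The make-up of the FOXA family differed between genotypes in PPs at 0 h, while in hILOs the genotypes lay close. The stages are set side by side in different units, and no test was run between them. As a share of the summed transcripts per length, *FOXA1* made up 7.39% and 8.35% in WT PPs at 0 h, 19.0% and 20.6% in A5-KO PPs at 0 h, and 38.7% to 40.8% in the 4 hILO libraries. *FOXA2* made up 63.6% and 65.2% in WT PPs, 56.8% and 60.9% in A5-KO PPs and 41.2% to 42.1% in hILOs. The sum itself overlapped between genotypes in PPs at 0 h, at 42.7 and 56.8 CPM per kb in WT and 47.9 and 54.4 CPM per kb in A5-KO. Within the HNF4 pair, *HNF4A* held 68.6% in both WT libraries at 0 h and 66.8% and 72.4% in A5-KO. The share in PPs depends on the length of annotated exons used for *HNF4A*. The FOXA shares in PPs depend on this choice too. *FOXA1*, *FOXA2* and *FOXA3* have 4414, 2719 and 2126 bases of annotated exons, against canonical transcripts of 3509, 2538 and 1923 bases.

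**Figure D1:**
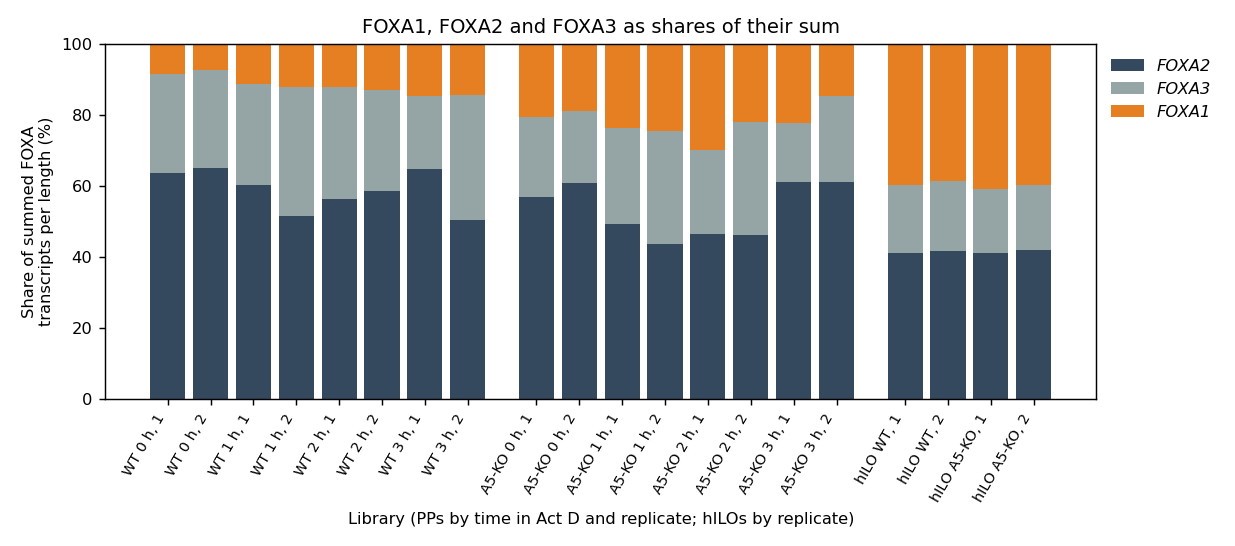
*FOXA1* (orange), *FOXA2* (dark) and *FOXA3* (grey) as percent of their sum per length, 1 bar for each library, ordered by genotype, hours of Act D and replicate, with hILOs at the right. The *FOXA1* part is 7.39% and 8.35% in the WT libraries at 0 h, 19.0% and 20.6% in the A5-KO libraries at 0 h and 38.7% to 40.8% in hILOs.

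The comparison of A5-KO with WT hILOs asked whether loss of ALKBH5 changed the network in organoids. None of the 8 genes passed the test, which required an adjusted p under 0.05 (limma on log2(TPM + 1), Benjamini-Hochberg over 17300 genes) and a change over 1.5-fold, a pair of criteria that 6.79% of all genes met. At an unadjusted p under 0.05 there were 4 of the 8, *ONECUT2*, *FOXA3*, *PROX1* and *FOXA2*. *ONECUT2* stood at 14.8 and 14.5 TPM in WT against 22.0 and 21.0 TPM in A5-KO. Its groups did not overlap, and its difference of 0.52 ± 0.08 (SE, log2, 1.43-fold) had an adjusted p of 0.0288 but stayed under 1.5-fold. *FOXA3* stood at 32.0 and 32.5 TPM in WT against 27.7 and 26.6 TPM in A5-KO, a difference of -0.24 on the log2 scale with an adjusted p of 0.0919.

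*FOXA1* (66.3 and 64.2 TPM in WT against 63.3 and 58.0 TPM in A5-KO) and *FOXA2* (68.9 and 69.1 TPM in WT against 63.9 and 61.5 TPM in A5-KO) had differences of -0.10 (adjusted p = 0.348) and -0.14 (adjusted p = 0.160) on the log2 scale. *PROX1* stood at 11.5 TPM in both WT libraries and at 13.6 and 14.5 TPM in A5-KO, with an adjusted p of 0.140. *HNF4A* (60.6 and 72.5 TPM in WT against 80.3 and 72.4 TPM in A5-KO) and *NR5A2* (16.8 and 18.0 TPM in WT against 18.6 and 11.2 TPM in A5-KO) had overlapping libraries. *HNF4G* varied most within a genotype, at 9.83 and 21.2 TPM in WT against 44.6 and 19.4 TPM in A5-KO, and its interval of the log2 difference ran from -0.48 to 2.43. The median difference of the 8 genes was 0.05, against -0.06 over all genes tested.

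In PPs at 0 h, 1 of the 8 genes was upregulated in A5-KO and none was downregulated, while 1.57% of all 13911 genes tested were upregulated. That gene was *FOXA1*, at 21.0 and 13.9 CPM in WT against 49.4 and 40.1 CPM in A5-KO. Both A5-KO libraries lay above both WT libraries, and the difference was 1.33 ± 0.18 on the log2(CPM + 1) scale (2.51-fold, limma adjusted p = 0.00348). *HNF4A* stood at 103 and 89.2 CPM in WT against 138 and 126 CPM in A5-KO, a difference of 0.46 ± 0.09 with an adjusted p of 0.0290 that stayed under 1.5-fold. The call of *FOXA1* held without each library in turn in this fit of the 4 libraries at 0 h. In the fit over all 16 PP libraries it passed as well (adjusted p = 0.0287), but was lost without any one of the 4 libraries at 0 h (0.0504 to 0.323), with a pseudocount of 0.1 (0.0539) and without the filter (0.124). In the fit at 0 h *HNF4G* (22.2 and 19.2 CPM in WT against 32.4 and 22.6 CPM in A5-KO) passed as well when the second A5-KO library was left out (0.62, adjusted p = 0.0379).

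The other members did not pass at 0 h. *FOXA2* stood at 98.2 and 75.7 CPM in WT against 84.0 and 79.3 CPM in A5-KO, and *FOXA3* at 33.9 and 24.9 CPM in WT against 26.1 and 20.5 CPM in A5-KO, both with overlapping libraries. *NR5A2* (78.5 and 69.0 CPM in WT against 72.4 and 57.7 CPM in A5-KO) and *PROX1* (46.4 and 35.5 CPM in WT against 41.9 and 31.0 CPM in A5-KO) overlapped as well. *ONECUT2* stood at 157 and 140.2 CPM in WT against 196 and 163 CPM in A5-KO, with an adjusted p of 0.188.

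Act D blocks new transcription, and the level was followed from 0 h. The values are shares of the reads in the pool and not amounts per cell, so they can rise, and the median gene itself moved by -0.22 on the log2 scale in A5-KO and by -0.09 in WT from 0 to 3 h. *FOXA2* lost the largest share in the first hour in both genotypes. It dropped from 98.2 and 75.7 CPM to 16.7 and 15.97 CPM in WT and from 84.0 and 79.3 CPM to 19.0 and 15.5 CPM in A5-KO, which left 18.8% and 21.1% of the mean at 0 h. *FOXA1* kept 31.9% in WT and 32.4% in A5-KO at 1 h, and *FOXA3* kept 25.4% and 36.0%. At 3 h the 3 FOXA transcripts kept 7.80% to 8.69% in A5-KO, the lowest of the 8 genes. In WT *FOXA2* (28.5%) and *FOXA3* (32.9%) had the lowest means of the 8 genes at 3 h. The libraries of *FOXA3* there overlapped those of *FOXA2* and of *PROX1*. In WT *FOXA1* kept 58.3%, *NR5A2* 50.7% and *PROX1* 45.2%, with overlapping libraries.

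In A5-KO, *FOXA1* went from 14.8 and 14.1 CPM at 1 h to 7.59 and 5.41 CPM at 2 h and 4.63 and 2.50 CPM at 3 h, 7.96% of its mean at 0 h. In WT it stood at 5.06 and 6.08 CPM at 1 h, 3.02 and 8.97 CPM at 2 h and 9.40 and 10.9 CPM at 3 h, so both libraries at 3 h lay above both at 1 h. *FOXA2* in A5-KO reached 7.27 and 7.01 CPM at 2 h and 7.81 and 6.39 CPM at 3 h. In WT it stood at 8.57 and 25.0 CPM at 2 h and 25.6 and 23.9 CPM at 3 h, again above the WT libraries at 1 h. *FOXA3* in A5-KO fell to 2.86 and 3.77 CPM at 2 h and 1.65 and 1.99 CPM at 3 h, while WT held 3.76 and 9.505 CPM at 2 h and 6.32 and 13.0 CPM at 3 h.

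*NR5A2*, *PROX1* and *ONECUT2* kept 18.5%, 27.5% and 41.9% at 3 h in A5-KO. *NR5A2* stood at 34.2 and 35.7 CPM in WT against 31.9 and 26.8 CPM in A5-KO PPs at 1 h. It then stood at 26.4 and 34.6 CPM in WT against 17.7 and 17.2 CPM in A5-KO PPs at 2 h, and it reached 33.3 and 41.5 CPM in WT against 12.6 and 11.4 CPM in A5-KO PPs at 3 h. From 1 h on both A5-KO libraries lay below both WT libraries, while at 0 h the genotypes overlapped. *PROX1* stood at 14.2 and 16.7 CPM in WT against 11.7 and 9.79 CPM in A5-KO PPs at 1 h. At 3 h it stood at 14.6 and 22.5 CPM in WT against 11.3 and 8.73 CPM in A5-KO. Most of its fall came within the first hour in both genotypes. *ONECUT2* stood at 73.3 and 74.95 CPM in WT against 110.4 and 89.1 CPM in A5-KO PPs at 1 h. At 3 h it stood at 90.01 and 107 CPM in WT against 77.7 and 72.7 CPM in A5-KO, so the order of the genotypes was the opposite.

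The HNF4 transcripts changed least in A5-KO. *HNF4A* kept 84.2% of its mean at 0 h in WT and 90.7% in A5-KO at 1 h, with 97.1% in WT and 63.9% in A5-KO left at 3 h. There its libraries stood at 91.7 and 95.1 CPM in WT against 89.4 and 79.4 CPM in A5-KO. *HNF4G* kept 97.9% in WT and 67.0% in A5-KO at 3 h, with levels of 20.6 and 20.03 CPM in WT against 18.0 and 18.9 CPM in A5-KO. The share of *HNF4A* in the pair stayed between 66.5% and 73.0% in all A5-KO libraries under Act D and between 67.7% and 72.0% in all WT libraries under Act D.

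**Figure D2:**
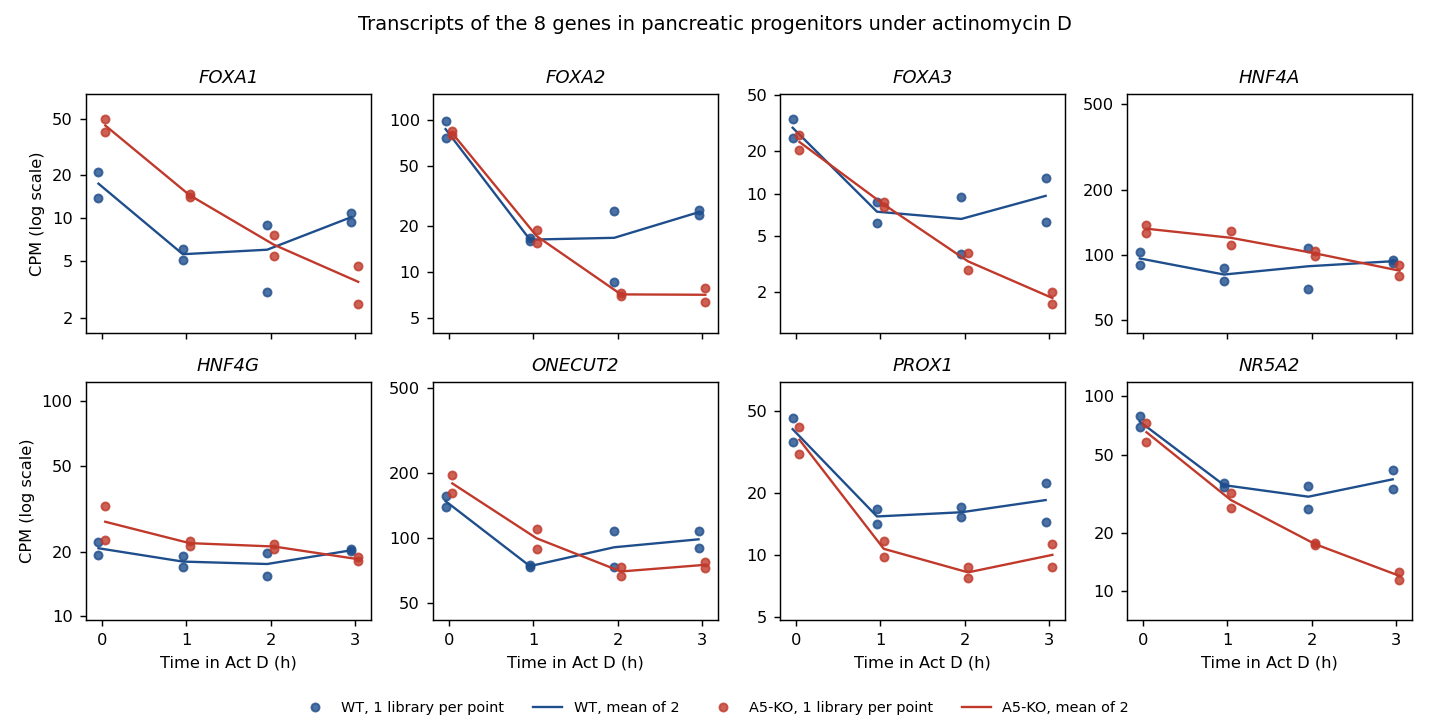
CPM of the 8 genes on a log axis against hours of Act D in PPs, with 1 point for each library and a line through the means of 2, WT in blue and A5-KO in red. *FOXA1*, *FOXA2*, *FOXA3* and *NR5A2* keep falling or stay low in A5-KO after 1 h, in WT the mean of *FOXA1* goes from 5.57 CPM at 1 h to 10.2 CPM at 3 h and that of *FOXA2* from 16.3 to 24.7 CPM, the 2 WT libraries at 2 h lie far apart, and *HNF4A* and *HNF4G* change least.

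By the test against 0 h (limma on log2(CPM + 1) over all 16 libraries, adjusted p under 0.05 and over 1.5-fold), 6 of the 8 genes were downregulated at 1 h in WT, where 15.3% of all 13620 genes were. The count was 6 at 2 h too, where 16.9% of all genes were. At 3 h in WT it was 5 of 8 against 10.1% of all genes, since *FOXA1* (-0.70, adjusted p = 0.173) did not pass. In A5-KO the counts were 6 of 8 at 1 h against 16.7% of all genes, 6 of 8 at 2 h against 27.3%, and 7 of 8 at 3 h against 30.9%. At 1 h the 2 that did not pass were *HNF4A* and *HNF4G* in each genotype, and *HNF4A* passed in A5-KO at 3 h (-0.64, adjusted p = 0.00190). That call was lost by edgeR (-0.37) and under median-of-ratios scaling (-0.36), and without the first A5-KO library at 0 h (-0.58) or the second at 3 h (-0.56), where the change was under 1.5-fold. The median change of the 8 genes from 0 to 3 h was -0.83 in WT and -2.05 in A5-KO. The WT count at 3 h fell to 2 without the first WT library at 0 h and to 3 without the first WT library at 3 h.

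A line was also fitted over the 4 times, on log2(CPM + 0.1). The slope in A5-KO was -1.22 per hour for *FOXA1*, -1.18 for *FOXA2* and -1.21 for *FOXA3*, which corresponds to half-lives, on the scale of read shares, of 0.821 h (95% interval 0.622 to 1.21), 0.848 h (0.5996 to 1.45) and 0.823 h (0.625 to 1.21). It was 1.25 h (1.00 to 1.67) for *NR5A2*, 1.69 h (1.08 to 3.86) for *PROX1*, 2.35 h (1.57 to 4.66) for *ONECUT2*, 4.59 h (3.06 to 9.20) for *HNF4A* and 5.85 h (3.47 to 18.8) for *HNF4G*. By edgeR and under median-of-ratios scaling these became 8.24 and 8.44 h for *HNF4A* and 12.4 and 13.9 h for *HNF4G*, while those of the other 6 genes moved by less than 1.5 times. A straight line did not follow every course in A5-KO. *PROX1* kept 29.5%, 22.6% and 27.5% of its mean at 0 h at 1, 2 and 3 h, and *ONECUT2* kept 55.6%, 39.0% and 41.9%. *FOXA2* kept 21.1%, 8.74% and 8.69%. The half-lives of these genes average a fast early fall and a later plateau, and their intervals assume the line. In WT the slopes ran from -0.55 for *FOXA2* and -0.53 for *FOXA3* through -0.34 for *PROX1* and -0.32 for *NR5A2* to -0.23 for *FOXA1*, with the other 3 nearer 0. The slope in A5-KO was below 0 at an adjusted p under 0.05 for 8 of the 8 genes, as for 37.1% of all genes. In WT the slope passed for 0 of the 8, as for 0.242% of all genes by limma, although 4 of the 8 had an unadjusted p under 0.05 and the changes at single times did pass. The call of *HNF4G* was lost without the first A5-KO library at 0 h (adjusted p = 0.193) or at 3 h (0.0575), under median-of-ratios scaling (0.227) and by edgeR on the recovered reads (0.177), and that of *PROX1* without the first A5-KO library at 0 h (0.0689).

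The genotypes were then compared at the same time of Act D. At 1 h, 1 of 8 genes was upregulated in A5-KO, against 2.94% of all genes: *FOXA1*, by 1.24 ± 0.33 (2.36-fold, adjusted p = 0.0301), a call that was lost without any one of the 4 libraries at 1 h (adjusted p from 0.0898 to 0.204). At 2 h, 3 of 8 were downregulated, against 4.24% of all genes: *NR5A2* (-0.76, adjusted p = 0.00455), *PROX1* (-0.89, adjusted p = 0.0121) and *FOXA2* (-0.96, adjusted p = 0.0441). The value of *FOXA2* was -0.23 (adjusted p = 0.509) without the second WT library at 2 h, and its call was also lost with a replicate block (0.0599) and without most other single libraries. The count of 3 was 0 without the second WT library or the second A5-KO library at 2 h, 1 without the first A5-KO library and 5 without the first WT library.

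At 3 h, 5 of 8 genes were downregulated in A5-KO relative to WT, against 17.7% of all genes. *FOXA3* was 3.60-fold lower (-1.85 ± 0.33, adjusted p = 0.000546), *FOXA2* 3.19-fold lower (-1.67 ± 0.29, adjusted p = 0.000508) and *NR5A2* 2.94-fold lower (-1.55 ± 0.15, adjusted p = 8.81e-06). *FOXA1*, the gene that was higher in A5-KO at 0 h, was 2.51-fold lower (-1.33 ± 0.33, adjusted p = 0.00573), and *PROX1* was 1.75-fold lower (-0.80 ± 0.20, adjusted p = 0.00717). In these 5 genes every A5-KO library at 3 h lay below every WT library at 3 h. The calls of *FOXA1* (adjusted p = 0.0946) and *PROX1* (0.0972) were lost without the second A5-KO library at 3 h, and that of *PROX1* also without the second WT library (0.1201). *ONECUT2* (-0.38, adjusted p = 0.0693), *HNF4A* (-0.15, adjusted p = 0.500) and *HNF4G* (-0.13, adjusted p = 0.565) did not pass.

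Whether the change from 0 h itself differed between genotypes was tested as an interaction at an adjusted p under 0.05. At 1 h 0 of 8 genes passed in limma, as did 0.235% of all genes, none of the 8 had an unadjusted p under 0.05, and the differences of the log2 changes ran from -0.32 (*PROX1*) to 0.49 (*FOXA3*). At 2 h 0 of 8 passed, as did 1.09% of all genes, with 4 of the 8 at an unadjusted p under 0.05 (*ONECUT2*, *NR5A2*, *PROX1* and *FOXA1*), and 5 passed without the first WT library at 2 h. At 3 h 5 of 8 passed, all with the greater fall in A5-KO, against 16.6% of all genes in that direction. The change of *FOXA1* differed by -2.66 ± 0.46 (adjusted p = 0.00223), that of *FOXA2* by -1.59 ± 0.41 (adjusted p = 0.0151), and that of *FOXA3* by -1.53 ± 0.46 (adjusted p = 0.0309). The change of *NR5A2* differed by -1.37 ± 0.21 (adjusted p = 0.00146) and that of *ONECUT2* by -0.65 ± 0.22 (adjusted p = 0.0473). The median difference of the 8 genes was -1.01 and that of all genes tested -0.17. The WT levels of *FOXA1*, *FOXA2* and *ONECUT2* at 3 h, which lay above those at 1 h, enter these differences. In WT *HNF4A* (75.4 and 86.6 CPM at 1 h against 91.7 and 95.1 CPM at 3 h) and *HNF4G* lay higher at 3 h as well. *FOXA3*, *NR5A2* and *PROX1* had overlapping WT libraries at 1 and 3 h. The 5 progenitor markers also parted, from 798 and 1020 CPM in WT against 737 and 813 CPM in A5-KO PPs at 0 h to 321 and 332 CPM against 81.6 and 93.7 CPM at 3 h, and their part in these differences was not tested. Median-of-ratios scaling moved the median gene in A5-KO from -0.22 to 0.03 over the 3 h, and with it the split of all genes called at 3 h from 2267 with the greater fall in A5-KO and 234 with the smaller to 1580 and 785. For A5-KO against WT at 3 h the split went from 2411 lower and 157 higher to 1868 and 376, and for A5-KO at 3 h against 0 h from 4210 and 293 to 3064 and 1554.

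The calls of *FOXA1* and *NR5A2* at 3 h held without each library in turn. That of *FOXA2* was lost without the first A5-KO library at 0 h (adjusted p = 0.0708), the second A5-KO library at 3 h (0.0698) or the second WT library at 0 h (0.0851). That of *FOXA3* was lost without any of these (0.138, 0.0732 and 0.143) or without the first A5-KO (0.0813) or second WT library at 3 h (0.148). *HNF4A* passed without either WT library at 2 h, *HNF4G* without the second A5-KO library at 0 h (0.0232) and *PROX1* without the first WT library at 3 h (0.0321). The call of *ONECUT2* was lost without any of 10 of the 16 libraries, at an adjusted p of up to 0.212 without the first A5-KO library at 0 h, under median-of-ratios scaling (0.0760), by edgeR on the reads (0.0773), with a replicate block (0.0624) and without the filter (0.188). *HNF4A* (-0.60, adjusted p = 0.0596), *PROX1* (-0.63, adjusted p = 0.140) and *HNF4G* (-0.51, adjusted p = 0.123) did not pass. The comparisons at 0 and 3 h and the difference of the changes share libraries, so they are not independent of each other.

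Over the whole course the difference of slopes passed for 0 of the 8 genes, against 2.67% of all genes by limma, with 4 of 8 at an unadjusted p under 0.05. *FOXA1* came nearest (-0.98 ± 0.26 per hour, adjusted p = 0.0531), followed by *NR5A2* (-0.48 ± 0.13, adjusted p = 0.0583) and *HNF4A* (-0.22 ± 0.07, adjusted p = 0.0985). By edgeR on the recovered reads 1 of 8 passed, *FOXA1* at -0.90 with an adjusted p of 0.0466. Without the first WT library at 0 h or at 2 h, 4 of 8 passed.

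Of 22 other transcription factors and cofactors of the liver, foregut and pancreas network, 20 were tested in PPs. At 0 h 3 were downregulated in A5-KO and 1 was upregulated, against 1.13% and 1.57% of all genes, with a median of 0.17 against 0.03 over all genes. *ONECUT1*, which encodes HNF6, stood at 18.7 and 17.1 CPM in WT against 7.23 and 5.33 CPM in A5-KO (-1.39, adjusted p = 0.00189). *ONECUT3* stood at 22.2 and 21.4 CPM in WT against 10.04 and 10.6 CPM in A5-KO (-1.01, adjusted p = 0.00247). *NR0B2*, the gene of the corepressor SHP, stood at 38.3 and 30.2 CPM in WT and at 17.3 CPM in both A5-KO libraries (-0.94, adjusted p = 0.00516). *TBX3*, a T-box factor of hepatoblasts, was the one upregulated, at 23.8 and 17.2 CPM in WT against 51.4 and 38.2 CPM in A5-KO (1.09, adjusted p = 0.00903). The 3 members of the ONECUT family thus had different signs, with *ONECUT1* and *ONECUT3* lower and *ONECUT2* at 0.27 and not past the test.

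Under Act D, 9 of the 20 factors were downregulated at 3 h against 0 h in WT (10.1% of all genes) and 16 of 20 in A5-KO (30.9% of all genes), with medians of -0.79 and -1.23, and the change differed between genotypes for 8 of 20, all with the greater fall in A5-KO (median -0.77), against 16.6% of all genes. These included *TBX3* (-2.27, adjusted p = 0.00326), *NR2F2* (-1.94, adjusted p = 0.0104) and *GATA6* (-1.90, adjusted p = 0.00425).

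In hILOs 21 of these 22 factors were tested, and 1 was downregulated and 1 upregulated in A5-KO, against 4.09% and 2.7% of all genes, with a median of -0.01. *HHEX*, a homeobox factor of liver and delta cells, stood at 5.58 and 6.77 TPM in WT against 2.41 and 2.61 TPM in A5-KO (-1.03, adjusted p = 0.0315), and *NR2F1* at 0.768 and 0.814 TPM in WT against 4.40 and 3.58 TPM in A5-KO (1.47, adjusted p = 0.0215). *NR2F1* passed the filter of a mean of at least 1 only through the A5-KO libraries, where it is high. Its call is therefore not counted as support.

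Among 21 liver genes known as targets of HNF4A or NR5A2, of which 4 were also among the hepatocyte markers, 18 were tested in hILOs, and 3 were upregulated and 3 downregulated in A5-KO, against 2.7% and 4.09% of all genes. *APOA2*, the gene of an apolipoprotein of high-density lipoprotein, stood at 839 and 836 TPM in WT against 3793 and 3810 TPM in A5-KO (2.18, adjusted p = 0.000530). *TF*, which encodes transferrin, stood at 1.39 and 1.204 TPM in WT against 8.59 and 8.64 TPM in A5-KO (2.07, adjusted p = 0.00701). *TTR*, which encodes transthyretin, stood at 7527 and 7550 TPM in WT against 18674 and 18749 TPM in A5-KO (1.31, adjusted p = 0.00110). *G6PC1* (-1.81, adjusted p = 0.00709) and *PCK1* (-0.91, adjusted p = 0.0466), both of gluconeogenesis, and *APOA4* (-0.63, adjusted p = 0.00284) were downregulated, and the median of the list was 0.17 against -0.06 over all genes. In PPs at 0 h 14 were tested, with 3 upregulated (*TTR*, *OTC* and *APOB*), 1 downregulated (*PCK1*) and a median of 0.03, against 1.57% and 1.13% of all genes.

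Transcripts that lie next to or over the members were read beside them, since reads of overlapping genes can be shared. *TTC6* starts 430 bases from *FOXA1* on the other strand and shares 16 exon bases with it. It stood at 0.574 and 0.589 CPM in WT against 1.89 and 2.99 CPM in A5-KO PPs at 0 h (1.101, adjusted p = 0.0245). *TTC6* is near the floor and passed the filter at 0 h only through the A5-KO libraries, so its call is not counted as support. *LINC00261*, a long noncoding RNA that starts 6813 bases from *FOXA2* on the same strand, stood at 208 and 197 CPM in WT against 216 and 194 CPM in A5-KO PPs at 0 h and at 171 and 181 CPM in WT against 133 and 117 CPM in A5-KO PPs at 3 h, so it lasted far longer than *FOXA2*. Its change at 3 h differed by -0.51 (adjusted p = 0.00712), and its slope by -0.18 per hour (adjusted p = 0.0369).

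*PROX1-AS1*, which lies on the strand opposite to *PROX1* and shares 163 exon bases with it, stood at 6.11 and 6.60 CPM in WT against 2.72 and 4.10 CPM in A5-KO PPs at 0 h (-0.76, adjusted p = 0.0665). The long noncoding RNA ENSG00000277837, 8241 bases from the start of *ONECUT2* on the same strand, stood at 9.01 and 8.24 CPM in WT against 12.6 and 10.7 CPM in A5-KO PPs at 0 h and differed in its change at 3 h by -0.85 (adjusted p = 0.0452). In hILOs *HNF4A-AS1* stood at 0.657 and 3.01 TPM in WT against 0.551 and 4.40 TPM in A5-KO, with the 2 replicates of each genotype far apart. *MIR3646*, whose 84 bases lie inside exons of *HNF4A*, stood at 0.964 and 0.693 TPM in WT against 0.935 and 5.04 TPM in A5-KO. A pseudogene inside *NR5A2*, ENSG00000229220, stood at 0.867 to 1.39 TPM.

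Across the 16 PP libraries, which share the course of Act D, the members fell into patterns that Pearson correlations of log2(CPM + 1) describe. *FOXA3* and *NR5A2* had r = 0.97, *FOXA2* and *FOXA3* 0.96 and *FOXA2* and *NR5A2* 0.95, and *HNF4A* and *HNF4G* 0.87, while *HNF4A* and *PROX1* had 0.30. Among 8920 genes that averaged 10 CPM or more, the 2 most like *FOXA2* were *ZNF703* (r = 0.9955) and *MYC* (0.9931), the 2 most like *FOXA3* were *PELO* (0.9923) and *PDX1* (0.9902), and the 2 most like *FOXA1* were *TBX3* (0.9778) and *TMEM41A* (0.9723). *NR5A2* was closest to *USP47* (0.992) and *RSBN1* (0.9915), *PROX1* to *OGA* (0.9837) and *DDX17* (0.9825), and *ONECUT2* to *TIMM10B* (0.9769) and *ZNF587B* (0.9763). *HNF4A* was closest to *TOP3A* (0.9384) and ENSG00000272405 (0.9116), and *HNF4G* to *ATE1* (0.9239) and *RHOBTB1* (0.9162).

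The AU-rich motif ATTTA was counted in the 3′ untranslated region of the canonical transcript. *FOXA3*, *FOXA2* and *FOXA1* held 0, 2 and 7 copies in 739, 852 and 1813 bases, and *HNF4A* and *HNF4G* held 2 and 11 in 3180 and 2738 bases. *NR5A2* held 9 in 3205 bases, *PROX1* 27 in 5676 bases and *ONECUT2* 37 in 14575 bases. The median over 12222 coding genes tested was 2 copies in 1370 bases. The DRACH motif, the sequence context in which m6A is placed, had a density of 12.6 per kb in *FOXA2* and 13.5 in *FOXA3*, below the 18.9 per kb of the median gene, and of 18.8 to 22.1 per kb in the other 6. These are counts of letters in reference transcripts and not measurements of the mark.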

How the data were processed

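Gene expression was measured by RNA-seq in 4 hILO and 16 PP libraries of both genotypes. Per the study's methods and the labels, the authors trimmed reads with fastp and aligned them with HISAT2 2.1.0 to GRCh38 (hg38). The hILO values are TPM, which the authors made with StringTie, and the total over the listed genes was 887320 to 924887 TPM. The PP values are CPM, deposited with the spiked-in RNA controls removed, so the study's scaling by those controls was not used here, and their read counter is not given in the sources used here. Each PP value came out as a whole number of reads within 0.05 reads for 100% of values in 16 of 16 libraries, so the recovered reads, 30516384 to 35206514 per library, were used for the count tests. Depth is unknown for the hILO libraries. Symbols and coordinates came from GENCODE on GRCh38.

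The test was limma 3.58.1 in R 4.3.3 (moderated, with trend) on log2(TPM + 1) or log2(CPM + 1), and on log2(CPM + 0.1) for slopes over time. Genes with a mean of at least 1 were kept, p-values were adjusted by Benjamini-Hochberg over all genes tested, and a fold change on this scale understates the change of low genes. hILOs and PPs at 0 h were each fitted alone, and the time course was fitted over 16 libraries. A gene was called at an adjusted p under 0.05 and over 1.5-fold, or at an adjusted p under 0.05 for slopes and interactions. Alternatives were other pseudocounts, filters and scalings, a replicate block, each library left out, and count tests on the recovered reads with DESeq2 1.42.0 and edgeR 4.0.16. Each step was tested on simulated data with changes of 2 on the log2 scale (1 per hour for slopes). For the difference of the change at 3 h in limma, 200 of 200 changed genes were recovered over 13616 genes, and 20 unchanged genes were called; smaller changes were not simulated.

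The genes, the lists and the motifs were chosen with earlier results of these data known. All 8 genes are given in each comparison. From the lists of partners and liver genes the called genes were named, up to 4 per list and direction with the largest first, except for an item that is not reported here, and the genes most like each member were the 2 with the highest Pearson r. Deposited values were used for all samples.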

Additional observations from a re-analysis of the deposited data

Results flagged for a closer look

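The change from 0 to 3 h of Act D differed between the genotypes, by the test of the interaction in limma, for 5 of the 8 genes, against 16.6% of all genes in that direction. The difference of the log2 changes (A5-KO minus WT) was -2.66 for *FOXA1*, -1.59 for *FOXA2*, -1.53 for *FOXA3*, -1.37 for *NR5A2* and -0.65 for *ONECUT2*. The calls of *FOXA2*, *FOXA3* and *ONECUT2* were lost without single libraries, that of *ONECUT2* for 10 of the 16 and also under other scaling. In *FOXA1* the direction of the difference between genotypes turned over the course, from 21.0 and 13.9 CPM in WT against 49.4 and 40.1 CPM in A5-KO at 0 h to 9.40 and 10.9 CPM against 4.63 and 2.50 CPM at 3 h. With 2 libraries a group, no single library could be tested for lying apart from its group.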

How the results depend on the processing

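The 8 genes in all contrasts gave 144 values, recomputed 3008 times. Of these, 2880 kept their side of the threshold, 81 lost the call and 47 gained it. The sign changed in 0 recomputed values of called genes and in 55 of genes that were not called. The cause of a moved value was not tested.

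Without a filter on low values, the genes called in all became 164 in PPs at 0 h (from 375), 330 in hILOs (from 1174), 1217 for the difference of the change at 3 h (from 2501) and 0 for the difference of slopes by limma (from 364, with 3164 lower and 679 higher at an unadjusted p under 0.05, and 254 by edgeR). Of the 8 genes, 0 then differed between genotypes at 1 h, 1 at 2 h and 2 in the change at 3 h. The difference of slopes called 54 genes from 0 and 1 h alone, 3029 from 0 and 3 h alone, 110 under median-of-ratios scaling and 173 with a pseudocount of 1. For the 8 genes it called 6 from 0 and 3 h alone, 1 by edgeR and 1 with a filter of a mean of at least 5. The slope in WT called 6 of 8 from 0 and 1 h alone and 5 of 8 from 0 and 3 h alone. Leaving out 2 h, chosen after seeing the data, gave 726 genes and 1 of the 8 when dropped in both genotypes and 1468 genes and 3 of the 8 when dropped in WT.

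Same-numbered libraries did not deviate together in hILOs (correlation 0.044) or in PPs at 1, 2 and 3 h (-0.0193, -0.113 and 0.000). In PPs at 0 h they did so in part (0.289). There each of the genes described here stood higher in the first library than in the second in both genotypes. The numbers were not taken as pairs, and a replicate block at 0 h raised the calls from 157 lower and 218 higher to 266 and 365. With a replicate block, 631 genes were called in PPs at 0 h, 674 in hILOs and 0 by the difference of slopes in limma (2601 lower and 311 higher at an unadjusted p under 0.05).

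When single libraries were left out, the genes called ranged from 189 to 288 in hILOs, from 0 to 1504 for the difference of slopes and from 794 to 3396 for the difference of the change at 3 h. Of the 8 genes, the calls between genotypes ranged from 1 to 2 at 0 h, 0 to 1 at 1 h, 0 to 5 at 2 h and 3 to 5 at 3 h, those of WT at 3 h against 0 h from 2 to 6, those of the difference of slopes from 0 to 4, and those of the difference of the change from 0 to 5 at 2 h and from 2 to 6 at 3 h. With 2 libraries a group, a group left with 1 was assumed to vary like the others. Depth limits only the lowest values, such as *FOXA3* in A5-KO at 3 h, which rested on 58 and 63 reads.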

Other observations

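*HNF4G* and the antisense RNA *HNF4A-AS1* both varied between replicates of one genotype in hILOs, but not in the same libraries. *HNF4G* was higher in the second WT library (21.2 against 9.83 TPM) and in the first A5-KO library (44.6 against 19.4 TPM), while *HNF4A-AS1* was higher in the second library of both genotypes (3.01 against 0.657 TPM and 4.40 against 0.551 TPM).

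Of 15 acinar genes, a group that NR5A2 is known to regulate, 7 were tested in hILOs. *CEL*, which encodes a pancreatic lipase, was the one that passed, upregulated in A5-KO (0.88, adjusted p = 0.0310). Of all genes 2.7% were upregulated and 4.09% downregulated there. The median of the 7 was 0.15, against -0.06 over all genes. In PPs at 0 h 4 of the 15 were tested and 0 passed by limma, against 1.57% of all genes upregulated and 1.13% downregulated. Their median was -0.26, against 0.03 over all genes.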
